A study of Homo sapiens with 8 samples.

Results

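The aldo-keto reductases are a family of cytosolic enzymes that use NADPH to reduce aldehydes and ketones to alcohols. Their substrates include sugars, lipid aldehydes, retinal, prostaglandins and steroid hormones. Several of the genes, in particular those of the AKR1C group and AKR1B10, are widely used as readouts of the transcription factor NRF2, which acts through antioxidant response elements. The family was examined here through 10 genes chosen by name, AKR1A1, AKR1B1, AKR1B10, AKR1B15, AKR1C1, AKR1C2, AKR1C3, AKR1D1, AKR7A2 and AKR7A3. All 10 were listed among the 63241 genes of the NCI-H716 tables, and 7 of them among the 28043 genes used from the HCT116 table. That table ends on chromosome 9, so the 3 AKR1C genes, which lie on chromosome 10, were measured in NCI-H716 only.

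RNA had been sequenced from 8 libraries of 2 human colorectal cancer cell lines. HCT116 is a line from a colorectal carcinoma, and NCI-H716 is a line from the ascites of a colorectal adenocarcinoma with endocrine features. Each line had 2 control libraries and 2 libraries of cells treated with Z325, the compound ZINC000101867325 that the study tested as an inhibitor of fibroblast growth factor receptors. Reactions held about 100 cells each. The study dissolved the compound in DMSO and set a single concentration for the work that followed its viability assay, but names no separate dose, treatment time or control solution for these libraries. It calls the 2 libraries of a group biological duplicates, without saying whether they came from separate cultures, so the p-values measure only the spread between these libraries.

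Library totals were 13183792 to 13396225 counts in 3 of the HCT116 libraries and 3434620 in Z325 replicate 2. They were 10210243 to 19738848 counts in NCI-H716. In HCT116, the epithelial marker EPCAM stood at 1476 to 1649 CPM (counts scaled to a common library total). Only 5 of the 14 colon epithelial markers were in the HCT116 table. Of the others, CLDN4 stood at 10.15 to 19.27 CPM, while VIL1, CDX1 and CLDN3 reached at most 0.448, 0.582 and 3.20 CPM. In NCI-H716, EPCAM stood at 38.2 to 50.7 CPM, the keratin gene KRT8 at 276 to 356 CPM and the endocrine hormone gene GCG at 1655 to 2502 CPM, while CDX1 was at 0 in all 4 libraries. The epithelial markers CDH1, KRT20 and CLDN3 reached at most 0.522, 0.456 and 0.456 CPM there. Of the endocrine markers, PYY was at 0 and NEUROD1 reached at most 0.07455 CPM. Immune markers summed to at most 8.13 CPM in any library. Fibroblast markers summed to 479 to 517 CPM in NCI-H716, nearly all of it from COL3A1 and LUM, with THY1 at 0 throughout. Some of these sums moved with treatment. The fibroblast markers of HCT116 summed to 8.02 to 32.9 CPM in control and 5.53 to 7.24 CPM in treated libraries, most of it from SPARC. In NCI-H716, the colon epithelial markers summed to 836 to 863 CPM in control and 689 to 706 CPM in treated libraries. Of 10 tested, 1 was lower in the test, MUC2, beside 0.099% of all genes tested. The endocrine markers summed to 2864 to 3227 CPM in control and 2706 to 2773 CPM in treated libraries. That last sum is dominated by GCG (2278 ± 372 against 1733 ± 130 CPM), while 7 of the 9 tested endocrine markers had a log2 fold change above 0, with a median of 0.24 and 0 called in edgeR, 1 higher in DESeq2 and 0 in limma. At an unadjusted p under 0.05 in edgeR, 4 were higher and 2 lower, beside 16.9% of all genes tested in either direction. The part of these shifts in the results given next was not tested.

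The AKR1C genes lie side by side on chromosome 10, and AKR1C1 and AKR1C2 are close to identical in sequence, which matters both for how their reads are assigned and for how they are read next to each other. All coordinates are for GRCh38, with genes as in GENCODE v44. AKR1C1 (ENSG00000187134) spans 10:4963253-4983283 on the plus strand, AKR1C2 (ENSG00000151632) 10:4987775-5018031 on the minus strand and AKR1C3 (ENSG00000196139) 10:5035354-5107686 on the plus strand. RefSeq windows of the 250 bases before the start site were at hand for 8 of the 10 genes, not for AKR1B10 and AKR1B15. Over these windows AKR1C1 and AKR1C2 were identical at 245 of 246 aligned bases (99.6%), while AKR1C1 and AKR1C3 were identical at 79.1% or 79.5% of aligned bases, depending on which of the 2 AKR1C3 start sites was taken. The distal stretch of these windows, which lies outside every annotated exon, is shown for the 3 genes whose levels rose together. Capitals mark aligned bases that differ from AKR1C1, while bases inserted or missing relative to AKR1C1 are not marked. AKR1C1 is at chr10:4963169-4963252 (plus strand), AKR1C2 at chr10:5004024-5004107 (minus strand), and the 2 AKR1C3 stretches at chr10:5048543-5048622 and chr10:5094164-5094242 (plus strand).
AKR1C1: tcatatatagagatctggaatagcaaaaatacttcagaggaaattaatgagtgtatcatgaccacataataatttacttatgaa
AKR1C2: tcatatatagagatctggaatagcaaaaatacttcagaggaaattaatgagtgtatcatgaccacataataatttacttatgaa
AKR1C3, first start site: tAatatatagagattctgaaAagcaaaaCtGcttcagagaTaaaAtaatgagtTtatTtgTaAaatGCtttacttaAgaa
AKR1C3, second start site: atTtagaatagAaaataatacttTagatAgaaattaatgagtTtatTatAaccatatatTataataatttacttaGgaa

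The AKR1C1 and AKR1C2 stretches were identical at 84 of 84 bases. The AKR1C3 stretches, of 80 and 79 bases, were identical to AKR1C1 at 65 of 78 and 63 of 72 aligned bases. Nearer to the start sites, all 3 genes carried ATTGG, the reverse strand of the CCAAT box, in a shared surrounding sequence. It is shown in capitals in the next lines with the matching site of AKR1C4, a neighbouring gene of the family that did not pass the test. The stretches shown lie wholly within annotated exons for AKR1C1, AKR1C2 and AKR1C4, and outside them for both AKR1C3 start sites. AKR1C1 is at chr10:4963326-4963355, AKR1C2 at chr10:5003921-5003950 (minus strand), AKR1C3 at chr10:5048696-5048725 and chr10:5094316-5094345, and AKR1C4 at chr10:5196739-5196767.
AKR1C1: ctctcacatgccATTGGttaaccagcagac
AKR1C2: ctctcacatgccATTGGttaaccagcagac
AKR1C3, first start site: cttttacatgctATTGGttaaccattaggc
AKR1C3, second start site: ctcctacatgccATTGGttaaccatcagtc
AKR1C4: ctacatgccATTGAttagccccagggagc

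CCAAT, searched on both strands, was in 32.0% of the 35116 windows of all genes and in a window of 4 of the 8 genes. These were the 3 AKR1C genes and AKR1B1, and AKR1B1 did not pass the test in either line. A gene was counted if any of its windows had a match, while the shares of all genes are per window. The core of the antioxidant response element, TGACNNNGC on either strand, was in 10.9% of all windows. Of the family, 1 gene had it, AKR7A2, which did not pass the test in either line. Its overlapping windows hold the same 3 matches, a pair of which lie close together at chr1:19312289-19312318 (minus strand), in capitals here.
AKR7A2: ggcccGCCGGGTCAgcTGACCGCGCgccac
The AP-1 site TGACTCA was in 4.20% of all windows and in that of no gene of the family. These are matches of letters in a short window, and factors also bind outside it.

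The first question was what Z325 did to the family in NCI-H716. Of the 10 genes, 8 passed the filter on low counts and were tested, and 4 of these 8 were higher in treated cells at an adjusted p under 0.05 in edgeR's quasi-likelihood test. None was lower. Over all 14142 genes tested, 0.403% were higher, 0.099% lower and 0.502% changed in either direction. At an unadjusted p under 0.05 there were 5 of the 8, the fifth being AKR7A3, beside 16.9% of all genes tested. Both treated libraries lay above both controls for the 4 called genes, and for 24.3% of all genes tested. The 4 genes were AKR1B10, AKR1C2, AKR1C1 and AKR1C3, and they ranked 4, 10, 21 and 289 by log2 fold change from the top. By p, AKR1C2 ranked 1 and AKR1C1 ranked 2 among all genes tested. The median log2 fold change of the 8 genes was 0.59, beside -0.01 over all genes tested.

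AKR1C2 encodes a 3-alpha-hydroxysteroid dehydrogenase that inactivates dihydrotestosterone. Its level in TPM (transcript abundance corrected for transcript length and scaled to a common total) was 47.4 and 55.1 in controls against 610 and 578 with Z325. Both treated libraries were therefore more than 10-fold above both controls. On the count scale it went from 74.9 ± 10.04 to 973 ± 3.40 TMM-normalized CPM (SD, n = 2), a log2 fold change of 3.70 with a standard error of 0.18 (edgeR adjusted p = 1.5e-05).

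AKR1C1 encodes a 20-alpha-hydroxysteroid dehydrogenase that inactivates progesterone. Controls had 37.9 and 37.6 TPM, and treated libraries 260 and 236 TPM. The groups were far apart and the libraries within each group close together. It rose from 64.6 ± 6.85 to 548 ± 53.3 CPM, with a log2 fold change of 3.08 and a standard error of 0.18 (edgeR adjusted p = 4.1e-05). Transcript lengths that RSEM estimated for AKR1C1 varied between 1423 and 2045 bases over the libraries, so its TPM is less exact than its counts. In limma on log2(FPKM + 1) the log2 fold change was 2.76.

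AKR1C3 encodes the 17-beta-hydroxysteroid dehydrogenase and prostaglandin F synthase of the group, which makes testosterone from androstenedione. It was already among the most abundant transcripts of untreated cells, at 1413 and 1372 TPM, rank 135 in both control libraries. In treated cells it reached 3428 and 2958 TPM, ranks 33 and 56, and took 0.425% and 0.378% of all counts, against 0.175% and 0.170% in control. Its log2 fold change was the smallest of the 4, at 1.21 with a standard error of 0.16, from 1734 ± 67.8 to 4024 ± 388 CPM (edgeR adjusted p = 0.00976). The call was lost without control replicate 1 (log2 fold change 1.26, adjusted p = 0.113) and in limma on log2(FPKM + 1) (1.26, adjusted p = 0.0920), with adjusted p between 1.9e-16 and 0.139 over its alternatives.

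AKR1B10 (ENSG00000198074, 7:134527567-134541412, plus strand) encodes an aldose reductase-like enzyme that reduces retinal and lipid aldehydes and is present in normal small intestine and colon. It was nearly silent in untreated NCI-H716 cells, where 3 and 9 counts (0.43 and 1.07 TPM) were found. In treated cells it had 516 and 481 counts (36.9 and 28.0 TPM). The ratio of its summed shares of all counts, 997 counts against 12, was 59.5 with an exact 95% interval of 33.9 to 116, which covers counting error only. The fitted log2 fold change was 5.91 with a standard error of 0.47, from 0.550 ± 0.457 to 31.8 ± 10.8 CPM (edgeR adjusted p = 0.000404). With so few control counts its size turned on single libraries, at 7.09 without control replicate 2 and 5.18 without control replicate 1, and it passed the test in both cases. Transcript lengths that RSEM estimated for this gene varied between 627 and 1046 bases over the 4 libraries, so its TPM is less exact than its counts.

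**Figure D1:**
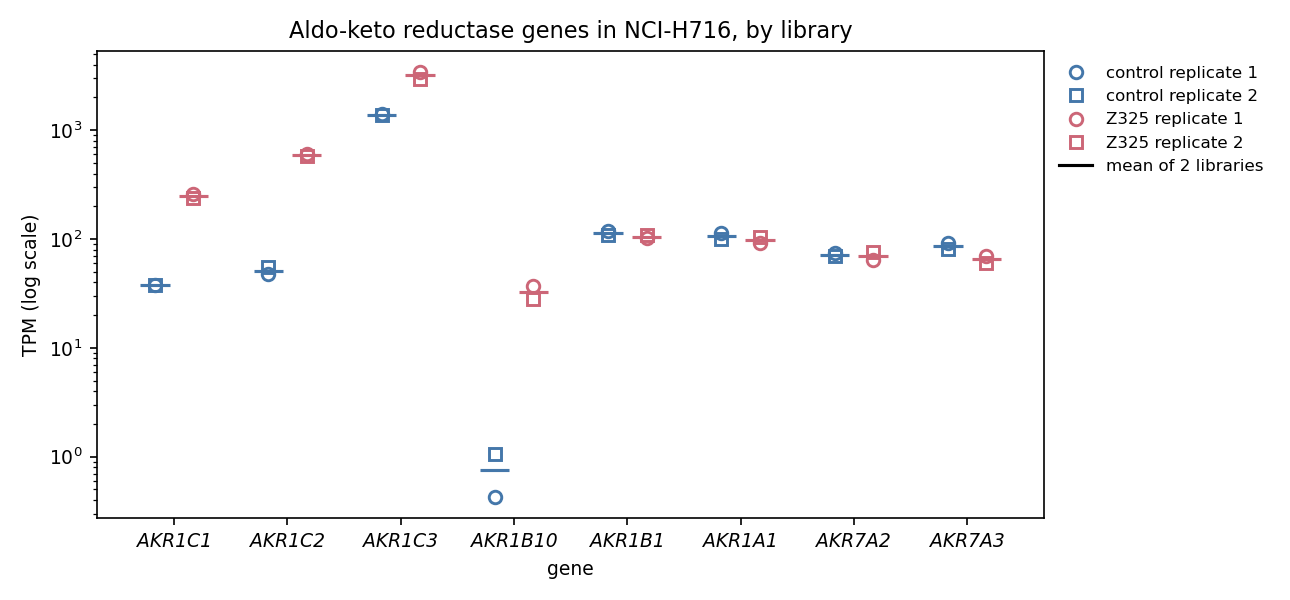
Level of 8 aldo-keto reductase genes in each NCI-H716 library, in TPM on a log axis. Circles and squares are replicates 1 and 2, blue for control and red for Z325, and each bar is the mean of 2 libraries. AKR1C1, AKR1C2, AKR1C3 and AKR1B10 sit higher in both treated libraries. AKR1A1 and AKR7A2 overlap between groups, while AKR1B1 lies slightly lower and AKR7A3 lower in both treated libraries.

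The other 4 tested genes did not pass the test. AKR1B1 (ENSG00000085662, 7:134442356-134459284, minus strand), the aldose reductase of the polyol pathway, was at 117 and 108 TPM in control and 101 and 108 TPM in treated libraries. Its log2 fold change was -0.05 with a standard error of 0.16 (edgeR adjusted p = 0.898). AKR7A2 (ENSG00000053371, 1:19303965-19312144, minus strand), an aldehyde reductase that acts on succinic semialdehyde, was at 74.0 and 69.5 TPM in control and 63.9 and 75.4 TPM in treated libraries. Its log2 fold change was -0.03 with a standard error of 0.17 (edgeR adjusted p = 0.946). Control and treated libraries of AKR7A2 overlapped. Those of AKR1B1 overlapped in CPM, with 167 and 157 in control and 149 and 163 in treated libraries, while in TPM the higher treated library lay just below the lower control.

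AKR1A1 (ENSG00000117448, 1:45550543-45570049, plus strand), the widely expressed aldehyde reductase, was at 114 and 99.9 TPM in control and 92.3 and 105 TPM in treated libraries, so that its groups overlapped in TPM. In CPM they did not, with 132 and 109 in control and 95.8 and 102 in treated libraries, and the log2 fold change was -0.29 with a standard error of 0.17 (edgeR adjusted p = 0.425). AKR7A3 (ENSG00000162482, 1:19282573-19288770, minus strand), a reductase of aflatoxin dialdehyde, was at 92.1 and 80.6 TPM in control and 69.3 and 60.9 TPM in treated libraries. Both treated libraries lay below both controls, with a log2 fold change of -0.39 and a standard error of 0.17 (edgeR adjusted p = 0.291), and 25.1% of all genes tested were separated in that direction. AKR1B15 (ENSG00000227471, 7:134549110-134579875, plus strand) had 1 count in control replicate 1 and none in the other libraries. AKR1D1 (ENSG00000122787, 7:138002324-138118305, plus strand), the steroid 5-beta-reductase of bile acid synthesis, had 2 counts in treated replicate 1 and none elsewhere. Neither was tested, and 3 counts would be 0.152 to 0.294 CPM in these libraries.

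The order of the levels changed with treatment. In control libraries the mean TPM ran from AKR1C3 (1393) through AKR1B1 (113), AKR1A1 (107), AKR7A3 (86.3), AKR7A2 (71.7), AKR1C2 (51.2) and AKR1C1 (37.7) to AKR1B10 (0.75). Among these neighbours, only AKR1B1 and AKR1A1 overlapped between their libraries. In treated libraries AKR1C2 (594) and AKR1C1 (248) stood directly under AKR1C3, above AKR1B1 (105), AKR1A1 (98.5), AKR7A2 (69.7), AKR7A3 (65.1) and AKR1B10 (32.4). There AKR1B1 overlapped AKR1A1, and AKR7A2 overlapped AKR7A3.

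The summed TPM of the 10 genes was 1897 and 1824 in control libraries and 4662 and 4149 in treated libraries. AKR1C3 made up 74.5% and 75.2% of that sum in control and 73.5% and 71.3% in treated libraries, so most of the added transcripts were its own although its fold change was the smallest of the 4. AKR1C2 went from 2.5% and 3.02% of the sum to 13.1% and 13.9%. AKR1C1 went from 2.0% and 2.06% to 5.57% and 5.69%. The 3 AKR1C genes together held 79.0% and 80.3% in control and 92.2% and 90.9% in treated libraries. In bulk samples like these, more cells of a kind that expresses a gene and more RNA per cell cannot be told apart.

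**Figure D2:**
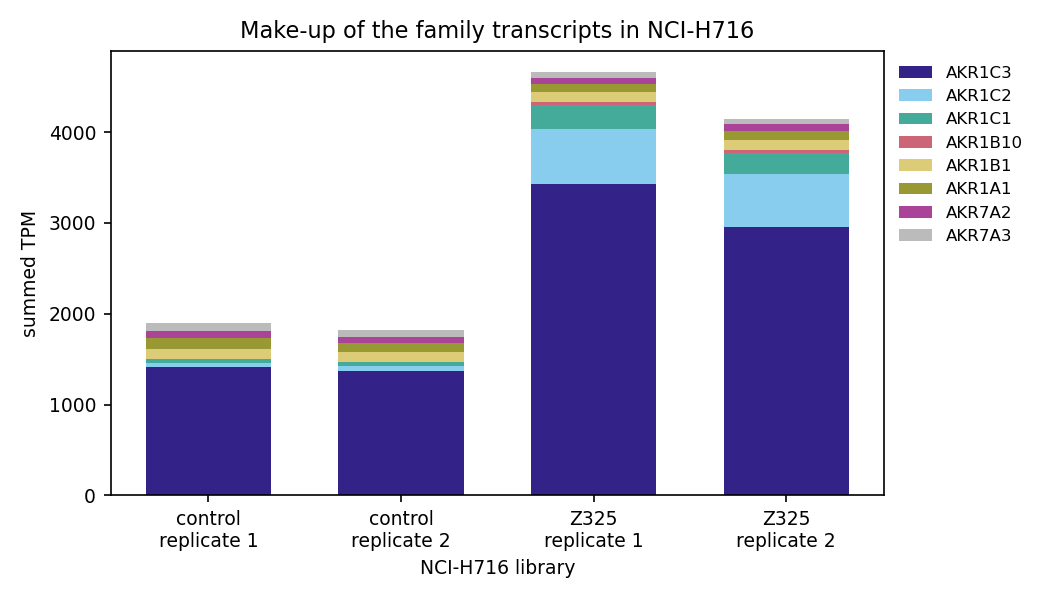
Summed TPM of the aldo-keto reductase genes in each NCI-H716 library, as stacked bars from 0, with 1 colour per gene (AKR1B15 and AKR1D1 are too low to draw). The sum is 1897 and 1824 in control and 4662 and 4149 in treated libraries, and the AKR1C2 segment goes from 2.5% and 3.02% of the sum to 13.1% and 13.9%.

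Reads of near-identical genes can be assigned to the wrong one. Of all stretches of 150 bases in the annotated transcripts, 7.50% for AKR1C1 and 10.9% for AKR1C2 were found in the transcripts of another family gene, almost all of them shared between this pair. The share was 0.508% for AKR1C3, 6.38% for AKR7A3 (with AKR7L) and 0 for AKR1B10. For stretches of 50 bases, looked up in aldo-keto reductase genes and pseudogenes, it was 24.9% for AKR1C1 and 36.0% for AKR1C2. It was 5.23% for AKR1C3, 30.7% for AKR7A3 and 13.7% for AKR1B10 (9.54% with AKR1B15). The split between AKR1C1 and AKR1C2 is therefore uncertain, so their counts were also summed. The sum rose from 140 ± 16.9 to 1520 ± 49.9 CPM, with a log2 fold change of 3.45 and a standard error of 0.18 (edgeR adjusted p = 2.5e-05). With AKR1C3 added, the 3 genes together had a log2 fold change of 1.57 with a standard error of 0.16 (edgeR adjusted p = 0.00202). The sum of AKR1B10 and AKR1B15 changed by 5.80 (edgeR adjusted p = 0.000677).

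AKR1C4 (10:5195462-5218949, plus strand), the liver-type 3-alpha-hydroxysteroid dehydrogenase next to these genes, was not among the 10 genes but is their neighbour. It had 709 and 629 CPM in control and 577 and 539 CPM in treated libraries, a log2 fold change of -0.26 with a standard error of 0.16 (edgeR adjusted p = 0.425). Of its annotated exon bases, 4.34% overlap an antisense RNA gene. AKR1E2 had a log2 fold change of 0.78 (edgeR adjusted p = 0.337), from 3.64 ± 0.753 to 6.28 ± 2.35 CPM. KCNAB1, KCNAB2 and AKR7L did not pass the test either, with log2 fold changes between -0.10 and 0.20. In edgeR, 0 of these 5 tested relatives passed the test and 0 had an unadjusted p under 0.05, and 0 passed in DESeq2 or limma. Of all genes tested, 0.502% passed in edgeR and 16.9% had an unadjusted p under 0.05. In HCT116 the tested relatives were KCNAB1 (-0.51, edgeR adjusted p = 0.851) and KCNAB2 (-0.59, adjusted p = 0.415).

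The second question was what Z325 did in HCT116. Of the 7 listed genes, 4 were tested and 1 was higher at an adjusted p under 0.05, AKR1B10. Over all 6491 genes tested, 2.83% were higher, 2.94% lower and 5.78% changed in either direction. At an unadjusted p under 0.05 there were 2 of the 4, AKR1B10 and AKR7A2, beside 23.9% of all genes tested. The median log2 fold change of the 4 genes was 0.07, beside -0.03 over all genes tested.

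Control libraries held 97 and 110 counts of AKR1B10, and treated libraries 721 and 160, of which the last comes from the shallow library. Relative to library size this was 7.02 and 8.44 CPM in control and 56.4 and 45.8 CPM in treated libraries, so that both treated libraries were above both controls at either depth. The mean went from 7.73 ± 1.01 to 51.1 ± 7.46 CPM, a log2 fold change of 2.73 with a standard error of 0.27 (6.63-fold, edgeR adjusted p = 0.00202). It ranked 49 by log2 fold change from the top and 17 by p. Without the shallow library the value was 2.89. The call held under each alternative in which it was tested, with log2 fold changes from 2.44 to 2.89.

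AKR7A2 had 116 and 156 CPM in control and 83.7 and 77.6 CPM in treated libraries, so that both treated libraries lay below both controls, as they did for 29% of all genes tested. Its log2 fold change was -0.75 with a standard error of 0.19 and a 95% interval of -1.18 to -0.32, and it missed the threshold (edgeR adjusted p = 0.0577). Under its alternatives the adjusted p ran from 0.00696 to 0.423, and it passed in 7 of them, among them DESeq2 (-0.71, adjusted p = 0.0105) and the fit without the shallow Z325 replicate 2 (-0.67, adjusted p = 0.0250). Without control replicate 2 it was -0.53 (adjusted p = 0.423).

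AKR1B1 had 204 and 299 CPM in control and 328 and 313 CPM in treated libraries, and the treated libraries lay just above the higher control. Its log2 fold change was 0.35 with a standard error of 0.18 (edgeR adjusted p = 0.286), and 24.8% of all genes tested were separated in that direction. AKR1A1 had 316 and 433 CPM in control and 339 and 305 CPM in treated libraries, which overlapped, with a log2 fold change of -0.22 and a standard error of 0.17 (edgeR adjusted p = 0.490). For these 2 genes and AKR7A2, control replicate 2 stood above control replicate 1, and the gap between the controls was wider than that between the treated libraries.

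**Figure D3:**
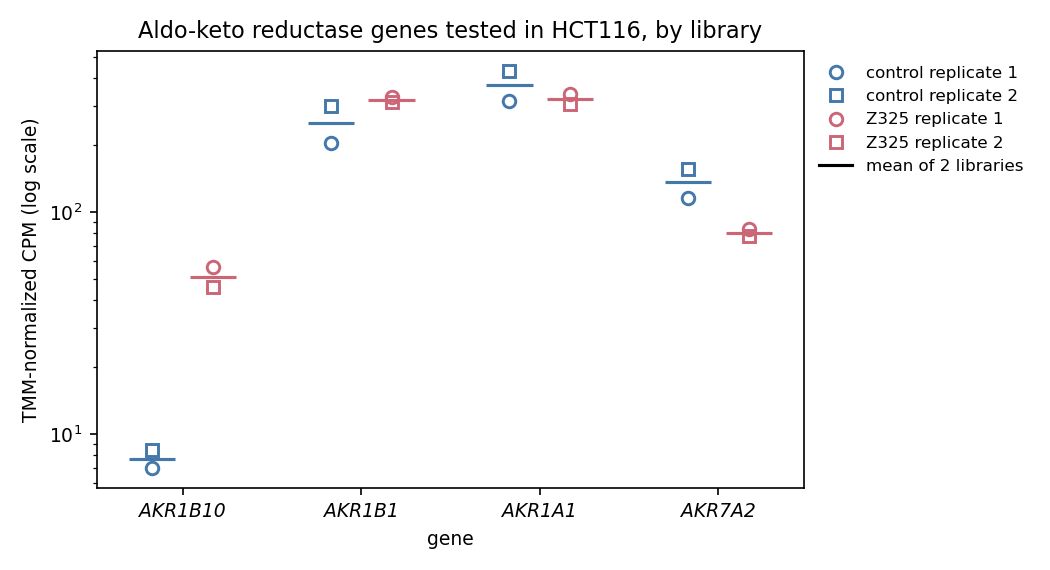
Level of the 4 tested aldo-keto reductase genes in each HCT116 library, in TMM-normalized CPM on a log axis. Circles and squares are replicates 1 and 2, blue for control and red for Z325, and each bar is the mean of 2 libraries. AKR1B10 sits near 7.73 CPM in control and 51.1 CPM in treated libraries, while the controls of the other 3 genes are spread apart.

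Per length, the order in HCT116 control libraries was AKR1A1 (105 and 137 FPKM, counts corrected for exon length and library total), then AKR7A2 (67.6 and 86.5) and AKR1B1 (57.8 and 80.8), which overlapped, and last AKR1B10 (4.10 and 4.71). In treated libraries it was AKR1A1 (104 and 99.4), AKR1B1 (85.8 and 87.1), AKR7A2 (44.9 and 44.4) and AKR1B10 (30.4 and 26.3), with no overlap between neighbours. The 3 genes that were not tested were at or near the limit of detection. AKR1B15 had 0 and 2 counts in control and 12 and 1 in treated libraries, AKR1D1 4 and 2 against 6 and 0, and AKR7A3 4 and 2 against 0 and 1. In these libraries 3 counts would be 0.224 to 0.873 CPM.

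The third question was whether the lines differed. Of the family genes tested in both lines, AKR1B10 alone rose in both, by a log2 fold change of 2.73 in HCT116 and 5.91 in NCI-H716. The AKR1C genes were measured in NCI-H716 only, so they could not be compared. HCT116 had raw read counts and NCI-H716 expected counts from RSEM, so line and counting method cannot be told apart in a test between lines. The interaction of line and treatment over all 8 libraries gave a difference of -3.17 (HCT116 minus NCI-H716). Its standard error was 0.60 and its 95% interval -4.51 to -1.83. Its edgeR adjusted p was 0.0724, so that the difference was not called, while 0.0654% of the 7642 genes tested were. The control level under this difference was 12 counts over both NCI-H716 libraries, and the difference was -4.34 without NCI-H716 control replicate 2 and -2.48 without NCI-H716 control replicate 1. DESeq2 called it (-3.09, adjusted p = 0.000489), as did the edgeR fits without HCT116 Z325 replicate 1 (adjusted p = 0.0406) and without HCT116 Z325 replicate 2 (adjusted p = 0.0373), and over all its alternatives the adjusted p ran from 1.3e-05 to 0.350.

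For AKR7A2 the difference was -0.70 with a standard error of 0.26 (adjusted p = 0.259), and for AKR1B1 it was 0.42 with a standard error of 0.25 (adjusted p = 0.466). AKR1A1 differed by 0.09 with a 95% interval of -0.48 to 0.65 (adjusted p = 0.967). AKR7A3 rested on 7 counts in HCT116 (-1.23, standard error 1.14, adjusted p = 0.663). In edgeR, 0 of these 5 genes were called and 2 had an unadjusted p under 0.05, AKR1B10 and AKR7A2, beside 14.3% of all genes tested.

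**Figure D4:**
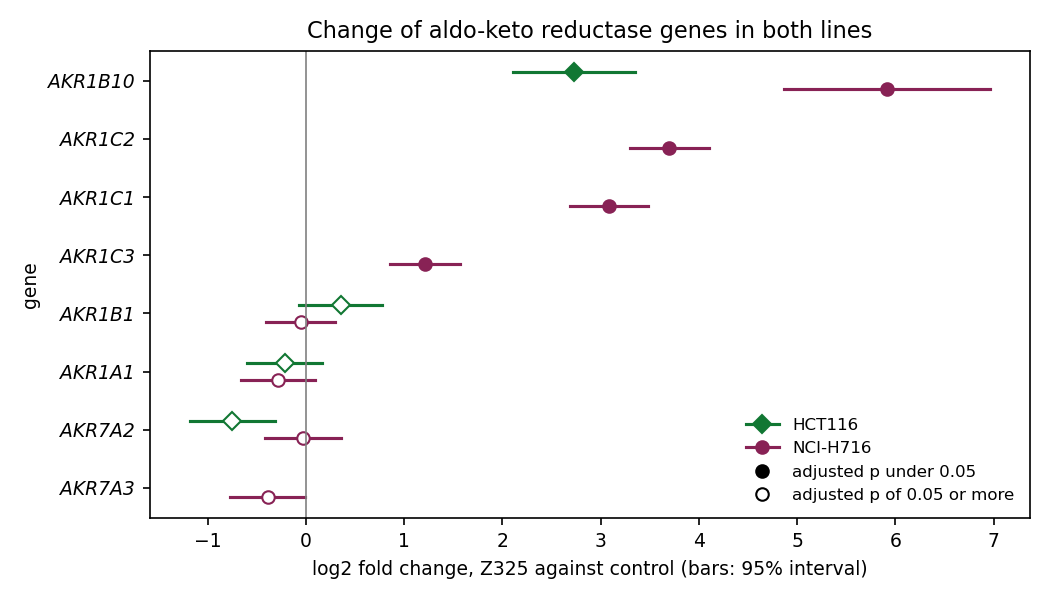
Log2 fold change of Z325 against control for the tested aldo-keto reductase genes, with 95% intervals from edgeR. Green diamonds are HCT116 and purple circles NCI-H716, filled where the adjusted p is under 0.05. AKR1B10 is filled in both lines (2.73 and 5.91), and the 3 AKR1C genes, measured in NCI-H716 only, are filled at 3.70, 3.08 and 1.21.

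Other enzymes that handle aldehydes and ketones were grouped into lists. The HCT116 table, which ends on chromosome 9, held 14 of the 32 carbonyl reductases and 6 of the 19 aldehyde dehydrogenases. It held 10 of the 14 alcohol dehydrogenase and polyol pathway genes. All of them were in the NCI-H716 tables, so counts and medians of the 2 lines rest on unlike sets of genes. Of 28 tested carbonyl reductases, 2 were higher in NCI-H716 and none lower, beside 0.403% and 0.099% of all genes tested. The median log2 fold change of the list was 0.12. The 2 genes called were NQO1 and PTGR1. NQO1, a quinone reductase, rose from 878 ± 95.4 to 2043 ± 233 CPM (log2 fold change 1.22, edgeR adjusted p = 0.0126). PTGR1, which reduces lipid enals, went from 15.8 ± 5.14 to 44.3 ± 1.10 CPM (1.48, adjusted p = 0.0263). In HCT116, 1 of 11 was higher and 1 lower, beside 2.83% and 2.94% of all genes tested, and the median of the list was 0.20. NQO2 rose from 302 ± 47.3 to 465 ± 25.8 CPM (0.62, adjusted p = 0.0475), and the retinal reductase gene DHRS3 fell from 70.2 ± 5.60 to 9.52 ± 4.56 CPM (-2.80, adjusted p = 0.00438). DESeq2 called 2 higher and 0 lower in NCI-H716 and 1 higher and 2 lower in HCT116, and limma called 0 in NCI-H716 and 1 lower in HCT116.

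Aldehyde dehydrogenases oxidize the same kind of substrate that the family reduces. In NCI-H716, 1 of 16 passed the test, beside 0.502% of all genes tested, and the median of the list was 0.29. The gene was ALDH3A1, which rose from 5.30 ± 0.321 to 21.4 ± 4.90 CPM (log2 fold change 2.01, edgeR adjusted p = 0.0108). DESeq2 called 4 of the 16 higher and limma 0, beside 173 and 5 of all 14142 genes. ALDH1A1 went from 140 ± 8.32 to 257 ± 44.7 CPM without passing (0.88, adjusted p = 0.0665). In HCT116, 0 of 5 passed in edgeR, DESeq2 or limma, and 0 had an unadjusted p under 0.05. Of all genes tested there, 5.78% passed in edgeR. Of the alcohol dehydrogenases and polyol pathway genes, 0 of 4 in HCT116 and 0 of 7 in NCI-H716 passed in any of these tools, with medians of -0.27 and -0.25. At an unadjusted p under 0.05 in edgeR, 2 of the 4 and 1 of the 7 were lower. Over all genes tested, 23.9% in HCT116 and 16.9% in NCI-H716 had such a p in either direction.

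Other known targets of NRF2 were listed apart from the family. In NCI-H716, the log2 fold change was above 0 for 29 of 29 tested genes, with a median of 0.93. Of these, 12 were higher and 0 lower in the test, beside 0.403% and 0.099% of all genes tested. Among them were GPX2, a glutathione peroxidase of the gut (2.78, edgeR adjusted p = 0.000246), SLC7A11, the cystine transporter (2.25, adjusted p = 0.000404), GCLM, a subunit of the enzyme that starts glutathione synthesis (2.04, adjusted p = 0.00117), and SQSTM1, an autophagy adaptor (1.61, adjusted p = 0.00221). NQO1 belongs to this list too. The HCT116 table held 12 of the 33 genes of this list, and the NCI-H716 tables all 33. In HCT116, the log2 fold change was above 0 for 9 of 11 tested genes and below 0 for 2, with a median of 0.88. At an unadjusted p under 0.05 in edgeR, 6 were higher and 1 lower, beside 23.9% of all genes tested in either direction. At an adjusted p under 0.05, where 2.83% of all genes tested were higher and 2.94% lower, 5 of 11 were higher and 0 lower. These were SLC7A11 (2.66, adjusted p = 0.000331), GCLM (1.79, adjusted p = 0.00113), ME1, the cytosolic malic enzyme that makes NADPH (1.24, adjusted p = 0.00288), GCLC, the catalytic partner of GCLM (1.73, adjusted p = 0.00498), and UGDH, which makes UDP-glucuronate (0.88, adjusted p = 0.0134). This list, like the family, was chosen with results of these libraries known, so its counts are a description. They also depended on the tool. In NCI-H716, 15 of 29 were higher in DESeq2 and 1 of 29 in limma on log2(FPKM + 1), beside 173 and 5 of all 14142 genes. In HCT116, 6 and 3 of 11 were higher, beside 402 and 29 of all 6491 genes.

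**Figure D5:**
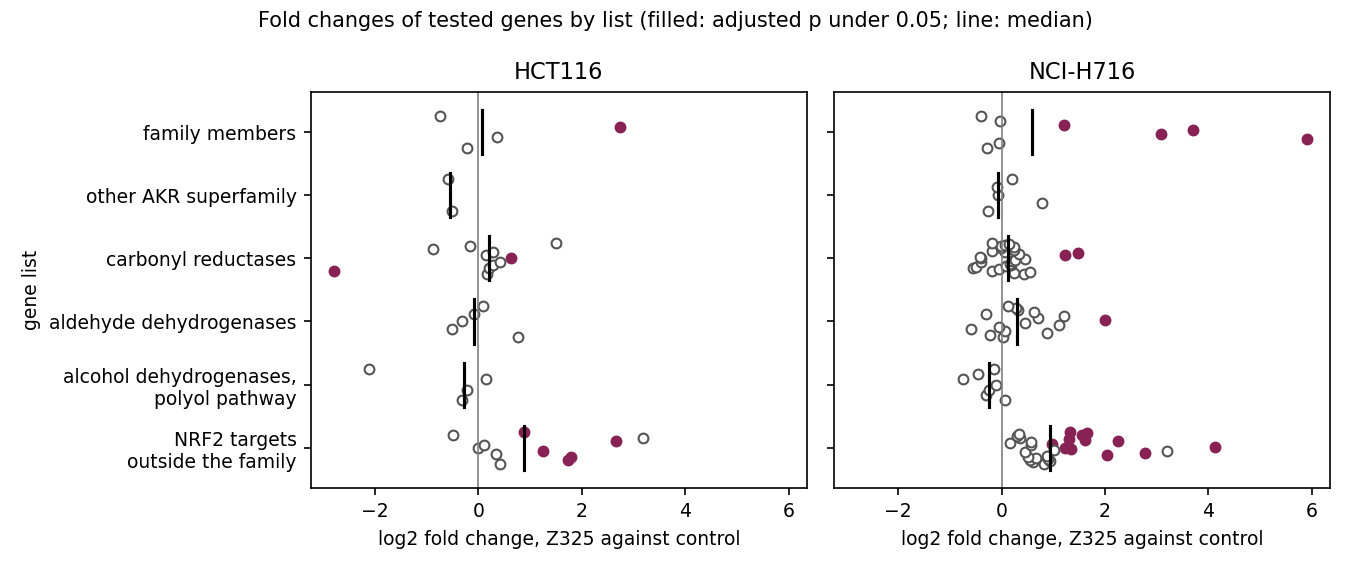
Log2 fold change of every tested gene of 6 lists in HCT116 (left) and NCI-H716 (right), with 1 point per gene, filled where the edgeR adjusted p is under 0.05, and a black line at each list's median. NRF2 targets outside the family have medians of 0.88 and 0.93, and the family has 1 filled point in HCT116 and 4 in NCI-H716. The HCT116 table ends on chromosome 9, so each list has fewer genes there and the medians rest on unlike sets of genes.

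Over all 8 libraries, after centring within each line, the 5 genes whose log2 CPM followed that of AKR1B10 most closely among 2984 genes were TES, GTF3C3, DCUN1D1, NXPE3 and BEND6, with Pearson's r from 0.984 to 0.989. The points share their libraries and depth, and the centred values are mostly a contrast of treated and control libraries. The changes of these genes were smaller than that of AKR1B10, with log2 fold changes of 0.17 to 0.68 in HCT116 and 0.34 to 1.45 in NCI-H716. Of the 5, BEND6 passed the test in NCI-H716 (1.45, edgeR adjusted p = 0.0244), and none did in HCT116.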

How the data were processed

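The authors sequenced SMART-Seq2 type libraries, trimmed reads with TrimGalore, aligned them with STAR and quantified genes with RSEM on GRCh38. The submitters' processing notes name Bowtie2 2.5.0 and featureCounts. For NCI-H716, the authors deposited expected counts, TPM and FPKM per gene from RSEM. For HCT116, the authors deposited raw read counts with gene lengths. That table ends on chromosome 9, and 28043 of 28047 lines gave a usable gene. The FPKM of HCT116 were computed here from those counts and listed totals. Handling of reads shared by paralogs is not given in the sources used here. GENCODE v44 gave a symbol for 62666 of the 63241 NCI-H716 genes.

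Rounded expected counts and raw counts were fitted for each line alone in edgeR 4.0.16 (TMM, filterByExpr, quasi-likelihood test), with p-values adjusted by the Benjamini-Hochberg method over all genes tested. With 2 libraries against 2, a two-sided exact permutation test of a single gene reaches p = 0.333 at the lowest, so none was used. Tests of the difference between lines used the interaction over 8 libraries. TMM factors ran from 0.956 to 1.04. The steps were tested on simulated data.

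Alternatives were DESeq2 1.42.0, library size alone, at least 10 counts in every library, no filter, limma 3.58.1 on log2(FPKM + 1) or log2(FPKM + 0.1), a mean FPKM of at least 1, all 8 libraries in 1 fit, a replicate block, summed paralogs and leaving out each library. Summing AKR1C1 with AKR1C2 alone was added after the data were seen. All 10 genes are named whatever their values. Up to 4 genes per other list and line with the smallest adjusted p are named, with any other aldo-keto reductase and the 5 genes most like AKR1B10 by Pearson's r of log2 CPM (prior count 2, at least 10 CPM in each line). UGDH was named after its values were seen, as the list's other called gene in HCT116, and so were the cell type markers. The genes of the family and the lists were chosen with earlier results of these data known. Software was R 4.3.3 and Python 3.11.15 with Biopython 1.88, pandas 2.3.3 and matplotlib 3.10.9.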

Additional observations from a re-analysis of the deposited data

How the results depend on the processing

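In HCT116, 1 gene of the family was called. It was 2, with AKR7A2 added as lower, with all 8 libraries in 1 fit, at least 10 counts, DESeq2, library size alone or no filter, and 1 to 2 when a library was left out. In NCI-H716, 4 were called, 3 to 4 when a library was left out, and 1 with all 8 libraries in 1 fit, where only genes in both tables enter and the AKR1C genes do not. AKR1B10 could not be tested there with at least 10 counts in every library. For the difference between lines, 0 were called, 1 with DESeq2 or no filter, and 0 to 1 when a library was left out.

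Over all genes in HCT116, 375 were called, 615 with at least 10 counts, 759 with DESeq2, 683 with no filter, 37 and 47 in limma with pseudocounts of 0.1 and 1, 35 with a mean FPKM of at least 1, and 23 to 1076 when a library was left out (23 without control replicate 2, 44 without control replicate 1, 971 without Z325 replicate 1, 1076 without Z325 replicate 2). In NCI-H716, 71 were called (57 higher, 14 lower), 19 with all 8 libraries, 364 with DESeq2 (173 higher, 191 lower), 777 with no filter, 6, 6 and 8 in the same limma fits, and 38 to 1386 when a library was left out (38 without control replicate 1, 225 without control replicate 2, 1386 without Z325 replicate 1, 222 without Z325 replicate 2). The causes were not tested.

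Replicate numbers were shared between groups. Deviations of same-numbered libraries correlated at -0.03 in HCT116 and 0.20 in NCI-H716, with 2 pairs each. The replicate block gave 381 and 2397 genes, and in NCI-H716 it added AKR7A3 as lower (-0.39, edgeR adjusted p = 0.0261).

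The sign turned for values near 0 or poorly counted. The AKR1A1 difference between lines was -0.024 with no filter and -0.11 to 0.30 when a library was left out, below 0 without HCT116 control replicate 1, HCT116 Z325 replicate 1 or NCI-H716 control replicate 1. When a library was left out, AKR1A1 in HCT116 ran from -0.43 to 0.018 (above 0 without control replicate 2), AKR1B1 in NCI-H716 from -0.11 to 0.021 (above 0 without Z325 replicate 1), AKR7A2 in NCI-H716 from -0.16 to 0.11 (above 0 without control replicate 1 or Z325 replicate 1) and the AKR7A3 difference from -3.80 to 0.64 (above 0 without HCT116 Z325 replicate 1). In all 3 limma fits AKR7A2 in NCI-H716 was 0.023. Of 225 values of single genes under an alternative, 197 kept their direction and side of the threshold.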
